A study of Homo sapiens with 6 samples.

Results

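The genes described here act in G2 and mitosis. They were chosen by symbol: mitotic cyclins and kinases, spindle checkpoint genes, centromere and kinetochore genes, mitotic kinesins and their partners. All 41 were found among the 23059 genes of the count tables, and all 41 passed the filter on low counts that left 15173 genes for testing. They were measured by RNA sequencing in HCC-LM3 cells, an established human hepatocellular carcinoma line, in 3 cultures given DMSO (the solvent control) and 3 given apigenin, a plant flavone. The labels call the 3 samples of each group biological replicates and name no dose, duration, genotype or cell cycle synchronisation. The study asked how apigenin alters transcription in these cells.

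Cells enter mitosis when cyclin B binds the kinase CDK1 and CDC25 phosphatases strip inhibitory phosphates from it. Polo-like and Aurora kinases then build the spindle, the BUB and MAD proteins hold back anaphase until every kinetochore is attached, and the anaphase-promoting complex with CDC20 destroys cyclin B and securin. Most genes of this programme are silent in resting cells and are switched on late in the cycle by a complex of MuvB proteins with B-MYB and FOXM1, so their RNA is widely read as a mark of proliferation. In bulk RNA, fewer cells in G2 and mitosis and less of each transcript per cell cannot be told apart.

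Most of this programme was near its DMSO level with apigenin. Of the 41 genes, 1 rose (CDC25B) and 3 fell (FOXM1, MKI67 and CENPF) at an adjusted p under 0.05 in edgeR's quasi-likelihood test over all genes, and 37 did not pass. That is 9.76% of the members, against 6.99% of all tested genes (2.76% rose and 4.22% fell). The members lie at a median of 105 CPM (read counts scaled to library size), against 21.8 for all tested genes, so smaller changes can pass among them. Their median log2 fold change, apigenin over DMSO, was 0.0048, against 0.0039 over all tested genes. For 39 of the 41 (95.1%) it was under 0.25 in size, which is 1.19-fold, against 70.1% of all tested genes. The members also varied less among the DMSO libraries, with a median coefficient of variation of 2.94% against 6.32% over all tested genes. A share over genes of like level was not computed, so whether the members changed less than such genes was not tested. Standard errors (SE) of the members ranged from 0.0505 to 0.132. The apigenin libraries lay all above the DMSO libraries for 6 members (14.6%) and all below for another 6 (14.6%), against 14.4% and 15% of all tested genes, so these shares were near the background.

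**Figure D1:**
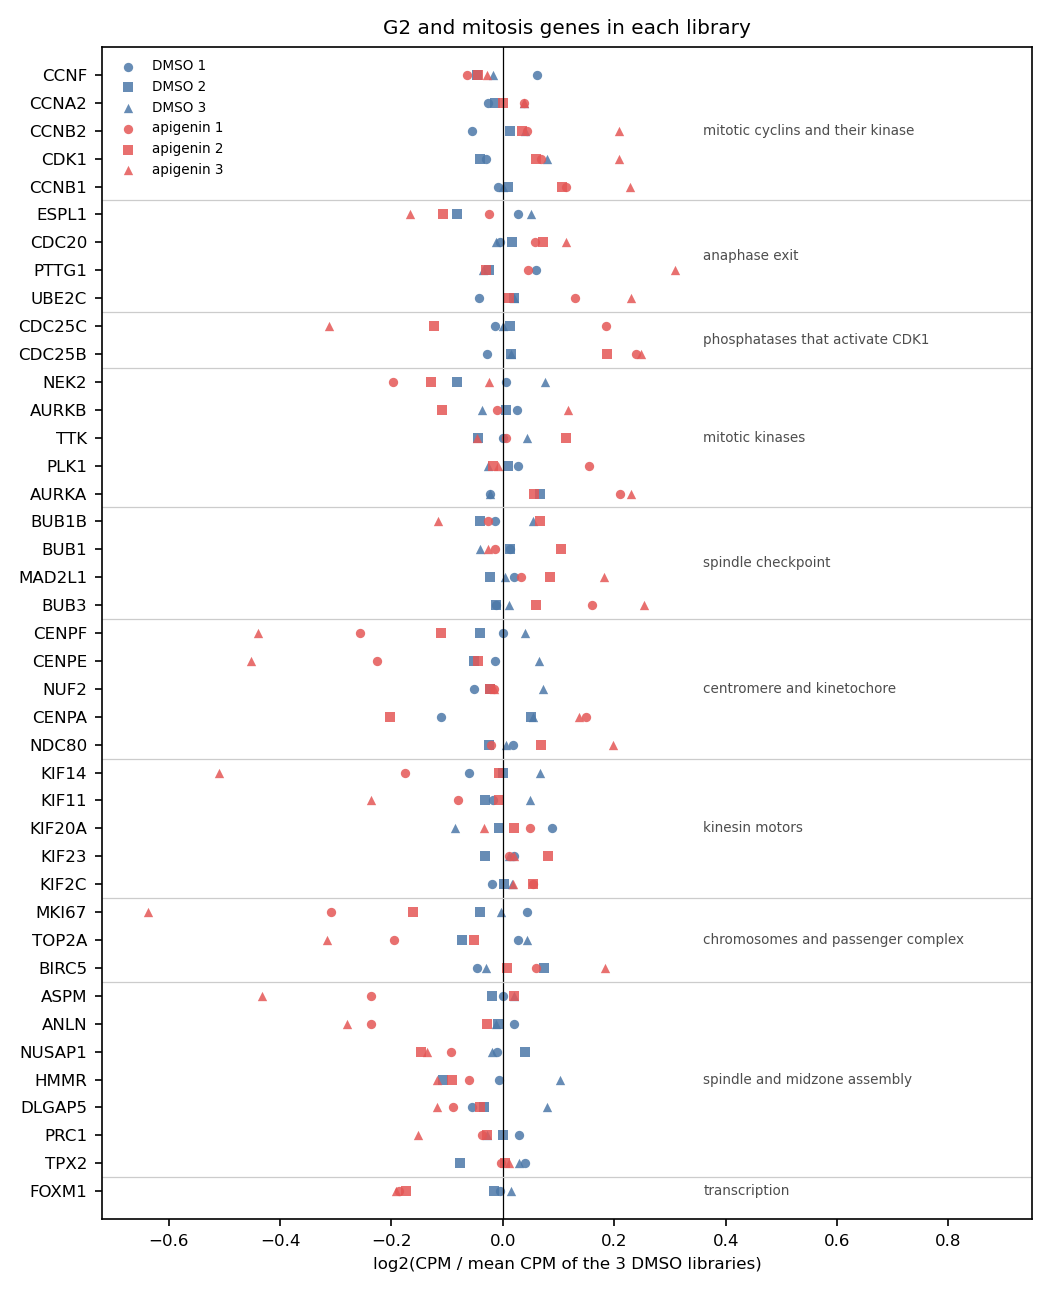
Level of each of the 41 genes in each library as log2 of its CPM over the mean of the 3 DMSO libraries (x axis), grouped by role (y axis), with DMSO in blue, apigenin in red and a marker shape for each replicate number. Most red points lie within 0.25 of 0, and the points farthest to the left are those of apigenin 3 for the long genes MKI67, KIF14, CENPE, CENPF and ASPM.

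Library totals ranged from 33882145 to 37983636 counts, and the member with the fewest reads had 295 in its lowest library. The 41 genes together took 0.605, 0.596 and 0.607% of all counts in DMSO 1, 2 and 3. With apigenin these shares were 0.58, 0.602 and 0.558%. Apigenin 3 was lowest, and apigenin 2 lay within the DMSO range. Relative to the DMSO mean, log2 levels over all tested genes had a slope on gene length of -0.0707 per doubling for apigenin 1. The slope was -0.0211 for apigenin 2 and -0.147 for apigenin 3, against -0.0047 to 0.00323 in the DMSO libraries. All 10 hepatocellular and epithelial markers were detected, 7 of them at a mean of 10 CPM or more, and ALB had 119 to 125 CPM with DMSO and 51.5 to 53.9 with apigenin. Of 10 markers of blood, endothelial and stromal cells, 2 (CD68 and PECAM1) exceeded a mean of 1 CPM. PTPRC reached at most 0.268 CPM, CD3E 0.0298 and COL1A1 1.03, and the list summed to 139 to 143 CPM with DMSO and 131 to 142 with apigenin.

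The promoters of these genes share a feature that their selection did not use. The CHR (cell cycle genes homology region) is a short element bound by the MuvB complex, and CCAAT boxes, bound by NF-Y, often lie just upstream of it. RefSeq start regions (GRCh38.p14, 250 bases before to 50 after a start) were at hand for 34 of the 41 genes and were searched on both strands for TTTGAA. The 7 members without a region, which were not searched, were FOXM1, AURKA, BIRC5, BUB3, TPX2, TTK and UBE2C. A match stood at 1 or more starts of 24 of the 34 (70.6%), against 13.9% of the 11839 tested genes with such an entry. TTCGAA, a variant of the element, was found for 4 members (11.8%, against 2.34%) and CCAAT for 28 (82.4%, against 42.5%). Both TTTGAA and CCAAT were present for 20 members (58.8%, against 7.53%). Among the G1/S and DNA replication genes used for comparison, 1 of 33 held TTTGAA (3.03%) and 20 held CCAAT (60.6%).

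The stretches below lie just upstream of a RefSeq start and show the element in MKI67, whose level changed, and in 4 genes that did not pass the test. That of CDC25B, whose level also changed, holds only the variant TTCGAA and is shown beside them. Each is printed in the gene's own direction with matches to the 3 motifs in capitals, also where CCAAT lies on the other strand (ATTGG). In MKI67 the last letter of the later TTTGAA also begins an ATTGG, whose other letters are left in lower case. They are MKI67 at chr10:128126435-128126494 (minus strand), CDC25B at chr20:3796230-3796289 (plus strand, upstream of a start inside the gene), CCNB2 at chr15:59105075-59105134, CDC20 at chr1:43358874-43358933, PLK1 at chr16:23678818-23678877 and KIF23 at chr15:69414252-69414311 (all plus strand).
MKI67: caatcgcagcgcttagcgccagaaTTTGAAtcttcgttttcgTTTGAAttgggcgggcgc
CDC25B: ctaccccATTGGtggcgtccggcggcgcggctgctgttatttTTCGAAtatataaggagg
CCNB2: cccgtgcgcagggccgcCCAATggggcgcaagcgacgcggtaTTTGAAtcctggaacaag
CDC20: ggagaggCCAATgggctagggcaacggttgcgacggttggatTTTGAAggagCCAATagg
PLK1: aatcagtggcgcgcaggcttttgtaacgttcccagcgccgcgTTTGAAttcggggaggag
KIF23: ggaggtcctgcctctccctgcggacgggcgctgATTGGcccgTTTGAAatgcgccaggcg

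MKI67 holds the element at 2 places in this stretch, and in CCNB2, CDC20 and KIF23 it follows a CCAAT box. Genes with and without the element did not form separate groups of changes. The 24 members with TTTGAA ranged from -0.36 to 0.11 on the log2 fold change scale with a median of -0.069, and the 10 without had a median of 0.024. With the trend on gene length removed (described further on) these medians were -0.089 and -0.024. The difference between them was not tested, and a match of letters is not a measured binding site.

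**Figure D2:**
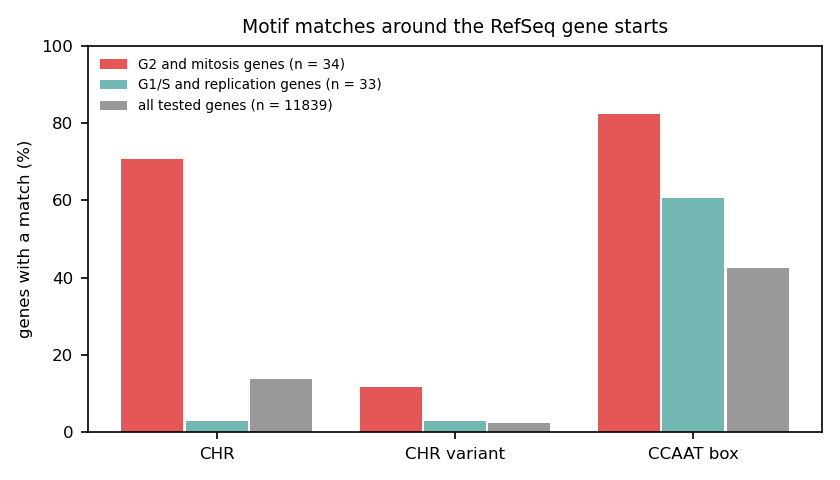
Share of genes (y axis, percent) with a match to the CHR, its variant or the CCAAT box in the RefSeq start region, for 34 G2 and mitosis genes, 33 G1/S and replication genes and 11839 tested genes. The CHR bar of the G2 and mitosis genes stands at 70.6%, against 3.03% and 13.9%.

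Among the regulators of CDK1, the phosphatase gene CDC25B rose. CDC25B (chromosome 20, 3786951 to 3806115) acts at the start of mitosis, where it activates CDK1 with cyclin B. It had 299, 308 and 308 CPM in DMSO 1, 2 and 3, and 360, 347 and 362 CPM in apigenin 1, 2 and 3. The groups did not overlap, and the 3 apigenin libraries lay close together. Its mean went from 305 ± 5.18 to 357 ± 8.13 CPM (SD, n = 3 each), a rise of 16.8% (log2 fold change 0.22 ± 0.0511 SE, adjusted p = 0.0198). CDC25C, the other phosphatase in the list, was the least abundant member per length, with a deposited FPKM of 4.23 ± 0.0441 in DMSO and 4.04 ± 0.724 in apigenin. Its log2 fold change was -0.066 ± 0.132, and its 3 apigenin libraries stood both above and below the DMSO mean (0.18, -0.12 and -0.31 on the log2 scale).

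The transcription factor gene FOXM1 fell. FOXM1 (chromosome 12, 2857680 to 2877174) drives many late cell cycle genes, among them CCNB1, PLK1, AURKB, CENPF and CDC25B. It had 289, 287 and 293 CPM in the DMSO libraries and 255, 257 and 254 CPM in the apigenin libraries. All 3 apigenin libraries lay below all DMSO libraries, by 0.19, 0.17 and 0.19 log2 units from the DMSO mean. It fell by 11.9%, from 290 ± 3.17 to 255 ± 1.36 CPM (-0.18 ± 0.0505, adjusted p = 0.0442). FOXM1 overlaps RHNO1 and ITFG2, and since the use of strand in counting is not stated, reads from the overlaps cannot be told apart. The same limit applies to other members that overlap genes. Among them are BUB1B (BUB1B-PAK6), CCNA2 (EXOSC9), PLK1 (ERN2), KIF20A (CDC23), ANLN (MATCAP2) and CDC25C (FAM53C). Of the known FOXM1 targets named here, CENPF fell, CDC25B rose, and CCNB1, PLK1 and AURKB did not pass (0.15 ± 0.0568, 0.041 ± 0.0607 and 0.0027 ± 0.0722).

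MKI67 and CENPF, the longest member of the list and the third longest, fell furthest. MKI67 (chromosome 10, 128096659 to 128126423) encodes Ki-67, the proliferation antigen that coats mitotic chromosomes. It had 476, 449 and 461 CPM with DMSO and 373, 413 and 297 CPM with apigenin. The groups did not overlap, but the apigenin libraries spread over a wide range, with apigenin 2 nearest to DMSO and apigenin 3 farthest. The mean went from 462 ± 13.6 to 361 ± 58.6 CPM, and the fitted level fell by 21.9% (-0.36 ± 0.0896, adjusted p = 0.0313). CENPF (chromosome 1, 214603195 to 214664571), a large coiled-coil protein of the outer kinetochore, had 282, 274 and 290 CPM with DMSO and 236, 261 and 208 CPM with apigenin. It showed the same order of libraries and fell by 16.6% (-0.26 ± 0.072, adjusted p = 0.0433). It overlaps the pseudogenes ABHD17AP3 and UBE2V1P13.

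The 4 calls depended on which libraries were kept. All were lost when DMSO 1, 2 or 3 or apigenin 1 was left out, and all held without apigenin 2 or apigenin 3, and none of the 4 changed direction in any of these fits. Without apigenin 2, the library with the least slope on length, 13 members were called (31.7%), 5 higher and 8 lower, against 18.6% of all genes tested in that fit. Over the 23 other settings tried, CDC25B passed in 19 (adjusted p from 0.000219 to 0.146), FOXM1 in 17 (0.000278 to 0.204), MKI67 in 14 (5.1e-07 to 0.252) and CENPF in 8 (0.00104 to 0.304).

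**Figure D3:**
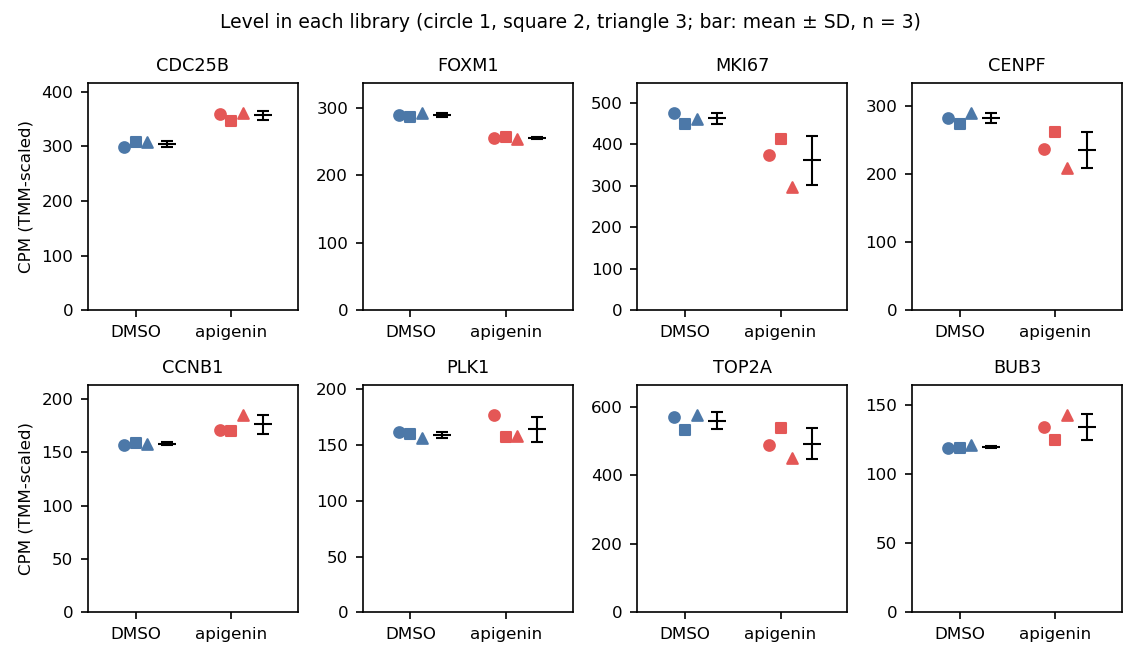
TMM-scaled CPM (y axis, from 0) of 8 genes in the 3 DMSO and 3 apigenin libraries (points, one shape for each replicate number), with mean ± SD. CDC25B, BUB3 and CCNB1 lie higher and FOXM1 lower in all 3 apigenin libraries, while MKI67 and CENPF spread from apigenin 2 down to apigenin 3.

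Of the mitotic cyclins and CDK1, 0 of 5 passed in edgeR. CCNB1 (chromosome 5, 69167150 to 69178245), the main cyclin partner of CDK1 in mitosis, had 157, 159 and 158 CPM with DMSO and 171, 170 and 185 CPM with apigenin. Its groups did not overlap, but the change of 11.1% did not pass (adjusted p = 0.118). CDK1 had a log2 fold change of 0.11 ± 0.0622, CCNB2 of 0.10 ± 0.0666, CCNA2 (cyclin A, which acts in S phase and G2) of 0.022 ± 0.0565, and CCNF, a substrate receptor of an SCF ubiquitin ligase, of -0.045 ± 0.0642. So 4 of these 5 had values above 0, and the highest of the 5 was 0.15. At an unadjusted p under 0.05, 1 of the 5 (CCNB1) was past the threshold, and DESeq2 and limma on log2(FPKM + 1) each called 0.

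The mitotic kinases gave a similar picture, with 0 of 5 passing in edgeR, 0 in DESeq2 and limma, and 1 (AURKA) at an unadjusted p under 0.05. PLK1, which acts at centrosomes, kinetochores and the midzone, had 162, 160 and 156 CPM with DMSO and 177, 157 and 158 CPM with apigenin, so that only apigenin 1 stood above the DMSO range. Its log2 fold change was 0.041 ± 0.0607. AURKA, the Aurora kinase of spindle poles, had 0.16 ± 0.063 (adjusted p = 0.136), and AURKB, that of the chromosomal passenger complex, 0.0027 ± 0.0722. The centrosome kinase gene NEK2 had -0.12 ± 0.0696, and TTK, the checkpoint kinase also known as MPS1, 0.025 ± 0.0697.

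Of the 4 spindle checkpoint genes, 0 passed in edgeR, DESeq2 or limma, and 1 (BUB3) had an unadjusted p under 0.05. BUB3 (chromosome 10, 123154402 to 123170467), which anchors the BUB kinases at kinetochores, had 119, 119 and 121 CPM with DMSO and 134, 125 and 143 CPM with apigenin. Every apigenin library was above every DMSO library, and the log2 fold change was 0.16 ± 0.0624 (adjusted p = 0.132). MAD2L1, which holds CDC20 inactive, also did not overlap between groups (0.10 ± 0.0619, adjusted p = 0.343). BUB1 and BUB1B, the checkpoint kinase and its relative BUBR1, had 0.025 ± 0.0602 and -0.018 ± 0.0648.

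Among the other centromere and kinetochore genes, the motor gene CENPE had a log2 fold change of -0.23 ± 0.089 (adjusted p = 0.126). Its level was -0.23, -0.045 and -0.45 from the DMSO mean in apigenin 1, 2 and 3. The NDC80 complex genes NDC80 and NUF2, which grip microtubules, stood at 0.087 ± 0.0706 and -0.017 ± 0.0717, and CENPA, the centromeric histone H3 variant, at 0.038 ± 0.098.

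Of the 5 kinesin genes, 0 passed in edgeR, DESeq2 or limma, and 1 (KIF14) had an unadjusted p under 0.05. KIF23, a motor of the central spindle, had 141, 136 and 140 CPM with DMSO and 140, 147 and 141 CPM with apigenin, which overlap (0.036 ± 0.0548). KIF20A, another motor of cytokinesis, stood at 0.012 ± 0.0665, and KIF2C, which depolymerises microtubules at kinetochores, at 0.042 ± 0.0602. KIF11, the motor that separates spindle poles, stood at -0.10 ± 0.0686. KIF14 had the lowest value of the 5, -0.21 ± 0.0985 (adjusted p = 0.198), with 92.4, 96.4 and 101 CPM in DMSO and 85.4, 96 and 67.7 CPM in apigenin 1, 2 and 3, so that apigenin 2 lay within the DMSO range.

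Spindle and midzone genes had mostly values below 0, and 0 of 7 passed in edgeR, DESeq2 or limma. An unadjusted p under 0.05 was reached by 3 of them (NUSAP1, ANLN and ASPM). TPX2, which activates AURKA on spindle microtubules and was second in level per length (110 ± 4.53 FPKM in DMSO), had 397, 366 and 394 CPM with DMSO and 385, 387 and 389 CPM with apigenin. The groups overlap, and its log2 fold change was 0.0048 ± 0.0528. The other 6 had values below 0. ANLN, a scaffold of the cleavage furrow, stood at -0.18 ± 0.0649 (adjusted p = 0.11) and the spindle pole gene ASPM at -0.21 ± 0.0866 (adjusted p = 0.159). NUSAP1 and PRC1, which bundle microtubules, stood at -0.13 ± 0.0546 and -0.073 ± 0.0568, and HMMR and DLGAP5 at -0.088 ± 0.0753 and -0.081 ± 0.0665. The apigenin libraries lay all below DMSO for ANLN, NUSAP1 and PRC1.

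Beside MKI67, the group of chromosome genes held TOP2A and BIRC5. TOP2A, the topoisomerase that untangles sister chromatids, had the most reads of the members, with 571, 532 and 577 CPM in DMSO and 489, 540 and 450 CPM in apigenin. Apigenin 2 lay within the DMSO range, and the log2 fold change was -0.18 ± 0.0657 (adjusted p = 0.104). BIRC5, which encodes survivin of the passenger complex, stood at 0.087 ± 0.0617. The genes of anaphase and mitotic exit did not pass either (0 of 4 in edgeR, DESeq2 and limma, and 0 at an unadjusted p under 0.05). UBE2C, the ubiquitin-conjugating enzyme of the anaphase-promoting complex and the highest member per length (114 ± 2.65 FPKM in DMSO and 124 ± 8.06 in apigenin), had 135, 141 and 141 CPM in DMSO and 152, 140 and 163 CPM in apigenin. The groups overlap, and its log2 fold change was 0.12 ± 0.0637. Its partner gene CDC20 stood at 0.081 ± 0.0566, and PTTG1 (securin) at 0.11 ± 0.0863. PTTG1 has near-identical intronless copies elsewhere in the genome, so its level is uncertain. ESPL1 (separase, which cleaves cohesin) stood at -0.10 ± 0.0683.

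At an unadjusted p under 0.05, 13 of the 41 genes were past the threshold, against 3697 of the 15173 tested. DESeq2 called the same 4 members as edgeR, and limma on log2(FPKM + 1) called 2, CDC25B and FOXM1. These are 9.76% and 4.88% of the members, against 12.7% of the 12327 genes to which DESeq2 gave an adjusted p and 5.2% of the 12592 tested in limma.

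The changes of the members were ordered by gene length. The lengths, taken from each count, its FPKM and the library total, ran from 1224 nucleotides (UBE2C) to 13228 (MKI67), with a median of 3406 against 3872 for the tested genes. Across the 41 genes, which share their libraries and are not independent replicates, log2 fold change and log2 length had a Pearson correlation of -0.65 and a Spearman correlation of -0.56. Over all tested genes these were -0.25 and -0.36. The slopes per doubling of length were closer, -0.104 for the members and -0.0806 over all tested genes. All 6 members in the fifth of the tested genes with the least length (up to 1986 nucleotides) had values above 0, with a median of 0.089 against 0.14 for all genes in it. Of the 6 members of 7092 nucleotides or more, the fifth with the greatest length, 5 had values below 0, with a median of -0.22 against -0.13. The exception was BUB3.

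The slope of the members on length followed the slopes of the libraries. Over the 41 genes the slope per doubling of length was -0.103 for apigenin 1, -0.0108 for apigenin 2 and -0.205 for apigenin 3. In apigenin 2, which had the least slope over all genes, the correlation with length was -0.10, against -0.63 in apigenin 1 and -0.72 in apigenin 3. Apigenin 3 was the apigenin library farthest from the DMSO mean for 30 of the 41 members. The median coefficient of variation of the members was 2.94% in DMSO and 6.02% in apigenin, against 6.32% and 9.97% over all tested genes. What sets the length trend of the apigenin libraries was not tested.

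Removing the smooth trend on length from each library took away most of this order. The correlation with length over the 41 genes was then -0.09. The median log2 fold change of the members was -0.039, and 29 of 41 had values below 0. Called members numbered 6 (14.6%, against 9.97% of all tested genes), of which 2 rose and 4 fell. CDC25B (0.20 ± 0.0394, adjusted p = 0.00212, against 0.22 before) and FOXM1 (-0.20 ± 0.0397, adjusted p = 0.00233, against -0.18 before) were called in all 8 settings with the trend removed, those that leave out a library included. MKI67 stood at -0.19 ± 0.0479 (adjusted p = 0.0143), against -0.36 before, and passed in 6 of the 8, but not without DMSO 1 or DMSO 3. CENPF stood at -0.12 ± 0.0424 and no longer passed (adjusted p = 0.0782).

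BUB3 rose with the length trend removed (0.26 ± 0.0654, adjusted p = 0.0133), and ANLN and NUSAP1 fell (-0.16 ± 0.0484 and -0.16 ± 0.0451, adjusted p = 0.04 and 0.0261). Each of these 3 passed in 4 of the 8 settings and lost the call without DMSO 1, 2 or 3 or apigenin 1. The length of BUB3 in the deposited values is 7703 nucleotides, while its 4 protein-coding transcripts in GENCODE 29 run from 667 to 7828. The correction applied to it follows the longer figure, and which transcript these cells make was not tested. The small positive values of the 6 members in the fifth with the least length changed sign. UBE2C went to -0.018, PTTG1 to -0.019, CCNB2 to -0.028, CDC20 to -0.033, CENPA to -0.10 and AURKB to -0.11, and none passed.

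**Figure D4:**
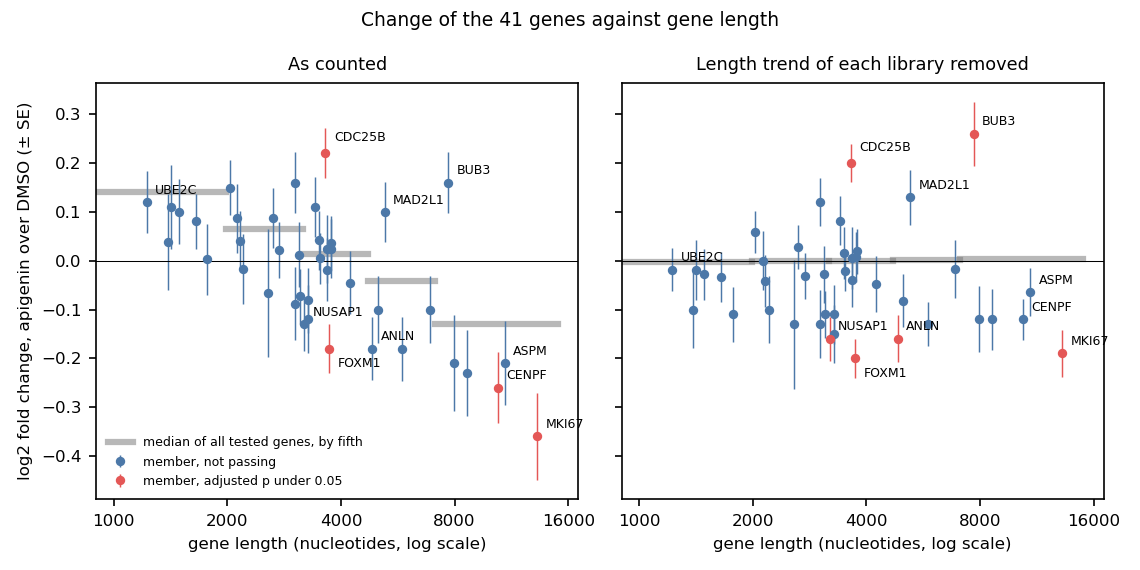
Log2 fold change of the 41 genes (points, ± SE) against gene length on a log axis, as counted (left) and with each library's length trend removed (right), with the median of all tested genes in each of 5 length classes as grey bars. On the left the points fall from UBE2C to MKI67, with BUB3 and MAD2L1 above the bars, and on the right CDC25B, BUB3, FOXM1 and MKI67 lie farthest from 0.

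Other genes of the same machinery were taken from 7 lists, 139 genes in all. Of these 1 rose, 5 fell and 133 did not pass, so 4.32% were called, against 6.99% of all tested genes. In edgeR 0 of 13 genes for entry into mitosis passed (2 at an unadjusted p under 0.05, and 1 in DESeq2 and 0 in limma), among them ARPP19, an inhibitor of the phosphatase PP2A and the one with the most reads (-0.04 ± 0.0577). Of 18 genes of the anaphase-promoting complex and its regulators, 0 passed in edgeR (6 unadjusted, 1 in DESeq2 and 0 in limma). The ubiquitin-conjugating enzyme gene UBE2S, which overlaps RPL28, had 0.11 ± 0.0717. Of 24 other spindle and motor genes, 0 passed in edgeR (4 unadjusted, 0 in DESeq2 and 0 in limma), with the microtubule polymerase gene CKAP5 at -0.16 ± 0.0704. Of 23 transcriptional regulators of the cell cycle, 0 passed in edgeR (6 unadjusted, 2 in DESeq2 and 0 in limma). MYBL2, which encodes B-MYB and had the most reads of the regulators, went from 171 ± 2.12 to 156 ± 3.78 CPM (-0.13 ± 0.0538, adjusted p = 0.141). With the length trend removed MYBL2 fell (-0.19, adjusted p = 0.00847), a call lost without DMSO 1 or DMSO 2.

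Condensin and cohesin, which compact and join chromatids, held 3 of the 5 related genes that fell. Of 18 genes 3 fell (16.7%, against 4.22% of all tested genes) and 0 rose in edgeR, while 12 had an unadjusted p under 0.05 (66.7%, against 24.4%). DESeq2 called 7 of them and limma 1. Values below 0 were found for 15 (83.3%, against 49.2%), with a median log2 fold change of -0.17, and the median length of the 18 was 6357 nucleotides. Of all tested genes of 4711 to 7091 nucleotides 169 of 3035 fell, and of those of 7092 or more 333 of 3035. The cohesin gene SMC1A had 416, 416 and 429 CPM in DMSO and 341, 372 and 302 CPM in apigenin (-0.31 ± 0.0677, adjusted p = 0.015). The condensin genes SMC2 and NCAPD2 fell by 0.28 ± 0.0646 and 0.20 ± 0.0547 on the log2 scale (adjusted p = 0.0205 and 0.0408). In all 3 genes apigenin 3 was the lowest library. Once the trend on length was taken out, the median of the 18 was -0.084, with 3 called lower and 2 higher. Of all 15173 tested genes 828 were then called lower and 685 higher. The lower ones were SMC1A (-0.18), NCAPD2 (-0.19) and NCAPG (-0.20), and SMC2 stood at -0.16 (adjusted p = 0.0565). The higher ones were WAPL, which releases cohesin from chromatin (0.20, adjusted p = 0.0182), and CDCA5 (sororin), which protects cohesin from WAPL (0.19, adjusted p = 0.0351). NCAPG, WAPL and CDCA5 were named after their values were seen. Each of these 5 calls was lost without at least 1 of the DMSO libraries, and that of CDCA5 also without apigenin 3.

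Of 35 other kinetochore and centromere genes, the checkpoint gene KNTC1 fell (-0.29 ± 0.075, adjusted p = 0.0358) and HJURP, the chaperone that loads CENPA, rose from 108 ± 4.43 to 126 ± 4.66 CPM (0.22 ± 0.0598, adjusted p = 0.0442). Among 8 passenger and cytokinesis genes, CIT, which encodes citron kinase, fell from 109 ± 0.605 to 81.2 ± 11 CPM (-0.42 ± 0.0832, adjusted p = 0.00852). CIT has a length of 10605 nucleotides and stood at -0.28 with the trend removed (adjusted p = 0.00153). With the length trend kept, SMC1A, SMC2, NCAPD2, KNTC1, HJURP and CIT each lost the call without DMSO 1, 2 or 3 or apigenin 1. In that order, they did not pass in 7, 14, 9, 11, 9 and 5 of the 23 other settings. Their adjusted p over all settings went up to 0.16, 0.229, 0.18, 0.207, 0.218 and 0.15.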

How the data were processed

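The labels describe TRIzol extraction of total RNA and libraries from a VAHTS Universal V6 kit. The tools named in the submitters' processing notes are HTSeq, HISAT2 and fastp, and the build is GRCh38 (hg38). Their versions, the gene annotation and any strand setting are not stated. The authors deposited, for each of the 6 samples, unnormalized whole-number counts by gene symbol, and FPKM values. The deposited FPKM equal count over a fixed gene length and library total for 100% of genes (relative tolerance 0.0001), which gave the lengths. Samples were grouped by title, 3 per group.

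Counts were fitted with edgeR 4.0.16 in R 4.3.3 (quasi-likelihood test, TMM factors, default filter, Benjamini-Hochberg adjustment over all tested genes, threshold 0.05). The SE is the log2 fold change over the root of F, and CPM are TMM-scaled. P-values weigh the difference between the groups against the spread among the 3 cultures within each, and cover only these 6 cultures. Alternatives were DESeq2 1.42.0, limma 3.58.1 on log2(FPKM + 1) and log2(FPKM + 0.1), other scalings and filters, the replicate number as a block, removal of each library's lowess trend (span 0.3) on log2 length, and each library left out. That trend was fitted to log2 CPM (prior count 2) minus the DMSO mean, and entered as an offset. The members, lists and alternatives were chosen with earlier results of these data known. All 41 members were described. Those called, and of each role the one with the highest mean CPM, were given in full. Of each related list, up to 3 called genes with the largest changes were named, or the highest by CPM. Steps were tested on simulated data. Positions, overlaps and start regions are from RefSeq (GRCh38.p14), where 21752 symbols matched. Depth (33882145 to 37983636 counts) limits precision little at these levels, and 0 reads would allow 0.079 to 0.0885 CPM (3 counts, counting error only).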

Additional observations from a re-analysis of the deposited data

How the results depend on the processing

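Across 23 other settings, the 41 genes gave 943 values, of which 774 kept direction and side of the threshold, 34 lost a call and 30 gained one. The other 105, in 18 genes, changed sign, all in genes not called by edgeR as first fitted and none called under the alternative. Of the counts that follow, those over related genes cover the 7 lists and the replication genes, where 2 were higher and 6 lower at first. The cause of the shifts was not tested. DESeq2 called 658 genes higher and 909 lower, of the 12327 to which it gave an adjusted p. Of the related genes it called 8 higher and 12 lower. Without a filter, 865 genes were higher and 1096 lower, among at most the 23059 genes of the count tables. Of the 41 members 1 was higher and 8 lower in that fit, and of the related genes 11 were higher and 14 lower. That fit also holds genes with very few reads, and the members lie well above most genes in level. A share over genes of like level was not computed, so these counts have no fitting background. Limma called 303 genes lower on log2(FPKM + 1) and 289 on log2(FPKM + 0.1), with 1 member lower in each and 3 and 2 related genes lower. Unfiltered limma called 78 genes higher and 60 lower, 0 members lower, and 1 related gene higher and 0 lower.

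With the length trend removed, 685 genes and 2 members were higher, as were 6 related genes, and the members' median was -0.039. Signs changed for CCNB2 (-0.028), CCNA2 (-0.031), CDC20 (-0.033), PLK1 (-0.041), AURKB (-0.11), CENPA (-0.10), KIF20A (-0.028), TPX2 (-0.021), PTTG1 (-0.019) and UBE2C (-0.018). Samples with the same replicate number did not deviate together (correlations of -0.0173, -0.0194 and -0.0482), so the number was not taken as a pairing. With the replicate block, 455 genes were higher and 776 lower, with 1 member higher and 2 lower, and FOXM1 was not called. With both the block and the trend removed, 801 genes were higher and 923 lower, of the 15173 tested. Of the members 2 were higher and 5 lower, with a median of -0.04 over all 41. Of the related genes 9 were higher and 11 lower. Signs then changed for CCNB2 (-0.028), CCNA2 (-0.031), CDC20 (-0.034), PLK1 (-0.044), AURKB (-0.11), CENPA (-0.10), KIF20A (-0.027), TPX2 (-0.02), PTTG1 (-0.02), UBE2C (-0.018) and NDC80 (-0.001). AURKB was also below 0 in the 3 limma fits (-0.00054, -0.00061 and -0.00054).

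With 1 library left out at a time, with or without the length trend, genes called higher ranged from 103 to 1344 and lower from 157 to 1546. The lowest counts were without DMSO 1 and the highest without apigenin 2. Members called ranged from 0 to 5 higher and 0 to 8 lower, their median from -0.058 to 0.012, and related genes from 1 to 20 higher and 0 to 26 lower. In these fits log2 fold changes crossed 0 for AURKB (-0.12 to 0.054), BUB1 (-0.035 to 0.048), BUB1B (-0.091 to 0.028), CCNA2 (-0.043 to 0.042), CCNB2 (-0.049 to 0.13), CDC20 (-0.078 to 0.091), CDC25C (-0.27 to 0.04), CENPA (-0.17 to 0.14), ESPL1 (-0.14 to 0.019), KIF20A (-0.067 to 0.057), KIF23 (-0.0038 to 0.048), NDC80 (-0.027 to 0.13), NUF2 (-0.13 to 0.021), PLK1 (-0.10 to 0.069), PTTG1 (-0.062 to 0.18), TPX2 (-0.058 to 0.025), TTK (-0.045 to 0.06) and UBE2C (-0.032 to 0.18). With 3 libraries a group, members at 0.15 to 0.16 (CCNB1, AURKA and BUB3) and TOP2A at -0.18 did not pass, with SEs of 0.0568 to 0.0657.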

Other observations

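The 40 genes of G1/S and DNA replication, given for comparison, showed a like picture. In edgeR 1 rose, 1 fell and 38 did not pass, with a median log2 fold change of 0.013, and the difference from the G2 and mitosis genes was not tested. FEN1, the flap endonuclease that trims Okazaki fragments, had 123, 125 and 121 CPM in DMSO and 152, 152 and 179 CPM in apigenin. It rose from 123 ± 2.33 to 161 ± 15.9 CPM (0.39 ± 0.0691, adjusted p = 0.00464) and was called in 22 of the 23 other settings, the exception being limma without a filter (adjusted p = 0.0817). POLE, the catalytic subunit of DNA polymerase epsilon, had 145, 149 and 152 CPM in DMSO and 123, 126 and 106 CPM in apigenin, and fell by 0.33 ± 0.0689 on the log2 scale (adjusted p = 0.013). POLE is 8849 nucleotides long and FEN1 2016. With the length trend removed they stood at -0.21 and 0.30, both called. With the length trend kept, the call of POLE did not hold when DMSO 1, 2 or 3 or apigenin 1 was left out. It did not pass in 6 of the 23 other settings (highest adjusted p over all settings 0.14).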
